A study of Mus musculus with 6 samples.

Results

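The interferon-induced Ifit family was taken as every gene whose symbol in the deposited tables starts with Ifit followed by a digit or the letter m, and 6 of the 13405 listed genes met that rule. They are Ifit1, Ifit2 and Ifit3, which lie together on chromosome 19, and Ifitm2, Ifitm3 and Ifitm5, which lie together on chromosome 7. They were measured by RNA-seq in 4T1, a mouse mammary carcinoma cell line of BALB/c origin grown in vitro, in 3 libraries of ATM KO cells and 3 libraries of vector control cells. ATM KO cells lack a working Atm gene by label, a kinase activated by DNA breaks, and vector control cells carry the vector alone. Neither group had any other treatment by label. The labels do not name the guide or the vector, or whether the knockout is 1 clone or a pool. They also leave unsaid if replicate libraries stem from different cultures, so p-values measure no more than how far these libraries lie apart, which may be a technical spread. The series title places the comparison in the context of mitochondrial DNA leakage and the cGAS-STING pathway, whose output is type I interferon.

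The IFIT proteins are cytosolic effectors built from tetratricopeptide repeats. IFIT1 binds the 5' end of RNA that lacks the cap methylation of host mRNA and blocks its translation, IFIT2 has been linked to mRNA binding and apoptosis, and in human cells IFIT3 binds and stabilises IFIT1. The IFITM proteins are small membrane proteins: IFITM2 and IFITM3 restrict the fusion of enveloped viruses in endosomes, whereas IFITM5, also called BRIL, is a bone protein of osteoblasts. Type I interferon signals through its receptor to the transcription factor complex ISGF3, which binds the interferon-stimulated response element (ISRE) of such genes, and Ifit1 is among the classic readouts of this pathway.

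The promoter sequences are shown because the members differ in whether they hold an ISRE-like motif near their RefSeq start. Whether such a motif bears on the expression values below was not tested. RefSeq start sites on GRCm38.p6 were found for all 6 members, and windows reached from 250 bases before to 50 bases after each start. The core of an ISRE, taken as 2 copies of GAAA with any 2 bases between them, was searched on both strands and was found in 1131 of 32851 windows of the same length in the RefSeq table (3.44%). Of the 6 members, Ifit1, Ifit3 and Ifitm3 held 2 matches each and Ifitm2 held 1, while the 2 windows of Ifit2 and the window of Ifitm5 held 0. In Ifit1 the matches began 104 and 85 bases before the start, and in Ifit3 they began 156 and 122 bases before it. The matched letters were the same in both genes, in the same order. A longer form with 3 copies of GAAA, each 2 bases apart, was in 0.116% of windows and in 0 of the 6 members. A match is a string of letters and does not show binding. Sequence outside the windows was not searched, so a window without a match does not show that the gene lacks an ISRE. In the sequences that follow, written 5' to 3' on the strand of the gene, capitals mark an ISRE core on either strand. The Ifit genes are shown as the 250 bases before the start, and the Ifitm genes as the 30 bases from the first match.
Ifit1, plus strand, chr19:34640639-34640888: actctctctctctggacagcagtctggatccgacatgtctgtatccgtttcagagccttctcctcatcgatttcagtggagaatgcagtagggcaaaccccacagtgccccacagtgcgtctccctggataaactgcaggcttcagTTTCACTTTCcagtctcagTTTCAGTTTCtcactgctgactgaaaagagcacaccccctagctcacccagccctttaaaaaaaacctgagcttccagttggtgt
Ifit3, plus strand, chr19:34583279-34583528: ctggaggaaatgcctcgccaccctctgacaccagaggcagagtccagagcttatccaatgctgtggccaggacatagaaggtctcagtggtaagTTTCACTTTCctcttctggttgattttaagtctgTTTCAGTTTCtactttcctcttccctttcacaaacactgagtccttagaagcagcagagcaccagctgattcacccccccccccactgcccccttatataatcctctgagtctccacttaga
Ifit2, plus strand, first start, chr19:34550444-34550693: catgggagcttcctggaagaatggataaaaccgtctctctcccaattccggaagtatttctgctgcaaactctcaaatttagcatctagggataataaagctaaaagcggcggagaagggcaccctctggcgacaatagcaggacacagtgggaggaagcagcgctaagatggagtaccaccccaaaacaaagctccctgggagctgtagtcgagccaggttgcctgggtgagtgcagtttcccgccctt
Ifitm2, minus strand, chr7:140955978-140956007: GAAAAGGAAAttgctagagaaagggcgggt
Ifitm3, minus strand, chr7:141010713-141010742: GAAAAGGAAActtctgaGAAACCGAAActg

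The Ifit1 start lies 146 bases from a start of the divergently transcribed Ifit1bl2, and both Ifit1 matches lie between them, so the same letters stand before either gene; Ifit1bl2 itself was not analysed here. In Ifitm2 the match began 46 bases before the start, and in Ifitm3 the matches began 3 and 20 bases after the RefSeq start. The map of motif matches shows these positions.

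**Figure D1:**
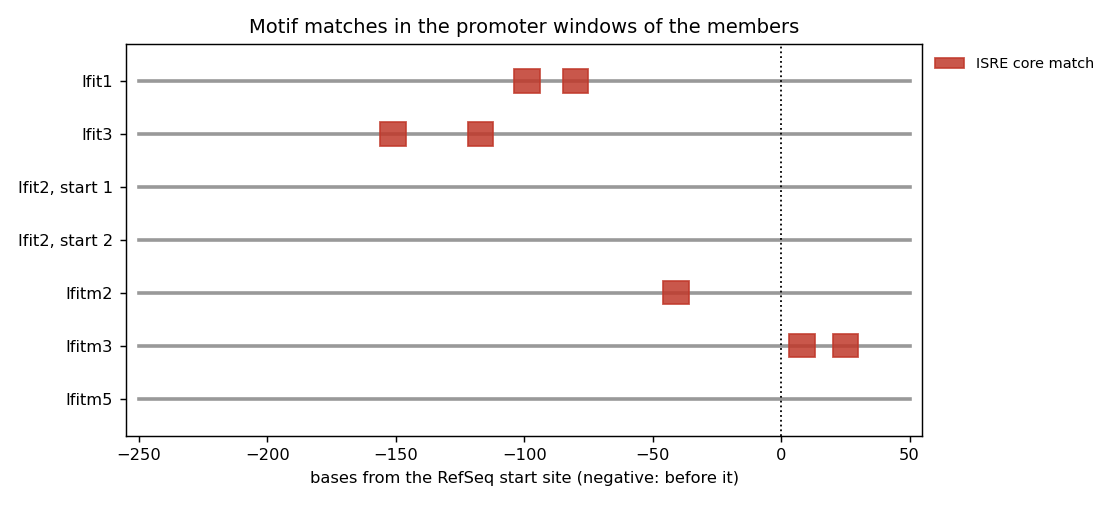
Positions of motif matches in the promoter windows of the 6 members, as bases from the RefSeq start site on the x axis, with 1 line per start (Ifit2 has 2). Red boxes are ISRE core matches: Ifit1, Ifit3 and Ifitm3 have 2 ISRE core matches each, Ifitm2 has 1, and Ifit2 and Ifitm5 have 0.

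Levels of the members differed far more between genes than between the groups. Read counts per gene, scaled by the authors with 1 factor per library (normalized read counts), were divided by the exon length in GENCODE M21 to order them, giving normalized reads per kilobase of exon (± SD, n = 3 libraries a group). Ifitm2 was highest, at 3339 ± 719 in ATM KO cells and 3649 ± 1074 in vector control cells per kilobase. Ifitm3 stood next, at 2368 ± 646 and 2770 ± 1219 in ATM KO and vector control cells per kilobase, and its libraries overlapped those of Ifitm2. Ifit2 followed at 230 ± 63.0 in ATM KO cells and 261 ± 26.6 in vector control cells per kilobase, below every library of Ifitm3. Ifit1 lay lower again, at 38.9 ± 6.22 in ATM KO cells and 13.3 ± 9.72 in vector control cells per kilobase, with no library reaching the lowest of Ifit2. The bone gene Ifitm5 (6.32 ± 0.666 in ATM KO and 5.57 ± 3.11 in vector control cells per kilobase) and Ifit3 (9.32 ± 3.08 in ATM KO and 4.88 ± 2.22 in vector control cells per kilobase) were the lowest and overlapped each other in both groups. Ifit1 was above both of them in ATM KO cells, but at 2.20 per kilobase in vector control 1 it lay below the 8.90 of Ifitm5 in that library.

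Reads of some members may be lost to or shared with other genes. Of the stretches of 50 bases in the Ifit3 transcript, 51.2% also occur in Ifit3b, and in Ifitm2 48.5% occur in transcripts of other genes, chiefly Gm45717, whose exons on the same strand overlap both Ifitm genes and cover 40.9% of the Ifitm2 exon bases and 29.7% of those of Ifitm5. The share was 10.02% for Ifitm3, 7.13% for Ifit1 and 0% for Ifit2. The read length and the treatment of reads that match several genes are not given in the sources used here, so the levels of Ifit3, Ifitm2 and Ifitm5 may be understated and are uncertain. Ifit3b is listed under the symbol I830012O16Rik, so the rule on symbols leaves it out; it stood at 12.8, 3.18 and 8.96 normalized read counts in ATM KO 1 to 3, against 1.95, 8.71 and 7.35 in vector controls 1 to 3, and the groups overlapped.

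The libraries differed in depth and in overall profile. Between 22494919 and 32341508 reads per library fell on the listed genes, of which the 6 members took between 0.0120% and 0.0223%. Vector control 1 stood apart from the other vector controls. The first principal component, with 59.4% of the variance, put it at -86.2, against 36.9 and 37.0 for vector controls 2 and 3. The ATM KO libraries were also spread widely on this axis, at 3.19, -41.5 and 50.7 for ATM KO 1 to 3. Atm mRNA, at 1959, 2220 and 1591 normalized read counts in ATM KO 1 to 3 and 1978, 1613 and 1519 in vector controls 1 to 3, did not separate the groups (adjusted p = 0.999, limma), and a gene-level value does not show a small deletion, so it does not check the labels. Of the 8 mammary epithelial markers, 7 were listed: the epithelial genes Epcam, Krt8, Krt18 and Cdh1 were abundant in both groups (Epcam at 13545 ± 6325 in ATM KO and 13603 ± 6486 in vector control cells, in normalized read counts), while Krt5 was at 0 in every library. The basal keratin Krt14 did not overlap between the groups, at 1968 ± 520 in ATM KO and 496 ± 300 in vector control cells (SD, n = 3; log2 fold change 2.23, adjusted p = 0.999, limma), and was lowest in vector control 1. Of 10 immune markers only Cd68 and Csf1r were listed, with a summed value of 702 to 1774 in ATM KO libraries and 529 to 1467 in vector control libraries. The 2 went opposite ways. Csf1r did not overlap between the groups and was higher in ATM KO cells (841 ± 357 against 331 ± 88.9, SD, n = 3, adjusted p = 0.999, limma). Cd68 overlapped and was lower in ATM KO cells (432 ± 324 against 794 ± 429, SD, n = 3, adjusted p = 0.999, limma). Of all tested genes, 5.7% had every ATM KO library above every vector control, as Krt14 and Csf1r did. Of 7 fibroblast markers 3 were listed, with sums of 344 to 754 in ATM KO and 146 to 547 in vector control libraries, and of 5 endothelial markers 1, at 0 to 6.84 in ATM KO and 2.10 to 11.7 in vector control libraries. The part of these markers in the values below was not tested.

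Ifit1 was the member that separated the groups, with all ATM KO libraries above all vector controls, as in 5.7% of all tested genes. Ifit1 (ENSMUSG00000034459, chromosome 19, 34640871 to 34650009, plus strand, GRCm38), the cap sensor of the family, stood at 111, 115 and 84.5 normalized read counts in ATM KO 1 to 3, against 5.84, 53.2 and 47.3 in vector controls 1 to 3. The ATM KO libraries lay close together and the lowest of them was above the highest vector control, whereas vector control 1 lay far below the other vector controls. The counts behind these values were 130, 108 and 66 reads in ATM KO cells and 6, 55 and 45 reads in vector control cells. The mean was 103 ± 16.5 in ATM KO cells and 35.4 ± 25.8 in vector control cells (SD, n = 3), a log2 fold change of 1.98 (SE 0.82, 95% confidence interval 0.01 to 3.96). Each log2 fold change given here has the vector control mean subtracted from the ATM KO mean of log2(value + 1); the added 1 shrinks the differences of low values. On the recovered reads the log2 fold change of Ifit1 was 1.55 by DESeq2 and 1.54 by edgeR, and the ratio of the 2 group means was 2.92. In bulk RNA, fewer expressing cells and less RNA per cell cannot be told apart. The unadjusted p was 0.0495, and adjusted over the 12149 tested genes it was 0.999 (limma), so Ifit1 did not pass the threshold of 0.05. Without vector control 1 the log2 fold change was 1.02 (SE 0.28, adjusted p = 0.258, limma), and every ATM KO library still lay above both remaining controls, as Ifit3 did too and as 19.6% of all tested genes did.

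Ifit3 values were low and its groups overlapped. Ifit3 (ENSMUSG00000074896, chromosome 19, 34583531 to 34588731, plus strand), the partner of IFIT1 in human cells, stood at 20.5, 18.0 and 10.2 normalized read counts in ATM KO 1 to 3, against 11.7, 9.67 and 4.20 in vector controls 1 to 3. ATM KO 1 and 2 were above all controls and ATM KO 3 lay below vector control 1. These values rest on 49 reads in the 3 ATM KO libraries and 26 in the 3 vector controls. The log2 fold change was 0.90 (SE 0.55, 95% confidence interval -0.42 to 2.23, adjusted p = 0.999, limma), an interval that includes 0. Without vector control 1 it was 1.16 (adjusted p = 0.405, limma).

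Ifit2, the most abundant of the Ifit genes, differed by less than its spread. Ifit2 (ENSMUSG00000045932, chromosome 19, 34550694 to 34576419, plus strand) stood at 1158, 890 and 663 normalized read counts in ATM KO 1 to 3, against 906, 1072 and 1099 in vector controls 1 to 3. The groups overlapped, with the highest and the lowest value both in ATM KO cells, and vector control 1 was near the other controls. The log2 fold change was -0.21 (SE 0.24, 95% confidence interval -0.80 to 0.37, adjusted p = 0.999, limma). In GENCODE M21 the exon that holds most of Ifit2 runs from 34573067 to 34576419. Both annotated transcripts begin far before it, at 34550694 and 34550710, inside the window of the first RefSeq start. The second RefSeq start is at 34551088, and neither window held an ISRE core match. Sequence nearer to the long exon was not searched, so these windows do not show that Ifit2 lacks an ISRE.

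Ifitm3 and Ifitm2 were abundant and overlapped between the groups. Ifitm3 (ENSMUSG00000025492, chromosome 7, 141009586 to 141010770, minus strand), the endosomal restriction factor, stood at 2070, 1547 and 1199 normalized read counts in ATM KO 1 to 3, against 928, 2269 and 2436 in vector controls 1 to 3. The ATM KO values lay between vector control 1, which was lowest, and the other controls. Its log2 fold change was -0.14 (SE 0.42, 95% confidence interval -1.15 to 0.87, adjusted p = 0.999, limma). Ifitm2 (ENSMUSG00000060591, chromosome 7, 140954837 to 140955987, minus strand), its close relative, stood at 2191, 1714 and 2656 normalized read counts in ATM KO 1 to 3, against 1578, 2797 and 2796 in vector controls 1 to 3. Here too vector control 1 was lowest and every ATM KO library lay between it and the other controls. Its log2 fold change was -0.10 (SE 0.29, 95% confidence interval -0.80 to 0.60, adjusted p = 0.999, limma). Without vector control 1, every ATM KO library lay below both remaining controls for both genes, an arrangement that 21.8% of all tested genes showed, and the log2 fold changes were -0.59 for Ifitm3 (SE 0.25, adjusted p = 0.355, limma) and -0.38 for Ifitm2 (SE 0.21, adjusted p = 0.443, limma).

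Ifitm5 (ENSMUSG00000025489, chromosome 7, 140948958 to 140950291, minus strand) stood at 5.13, 4.24 and 5.12 normalized read counts in ATM KO 1 to 3, against 6.81, 3.87 and 2.10 in vector controls 1 to 3. That is 4 to 6 reads per ATM KO library and 2 to 7 per vector control library, and the groups overlapped. With a mean of 4.55 it was under the minimum mean of 10 set for testing. Fitted without that minimum, its log2 fold change was 0.25 (SE 0.52, adjusted p = 0.999, limma).

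**Figure D2:**
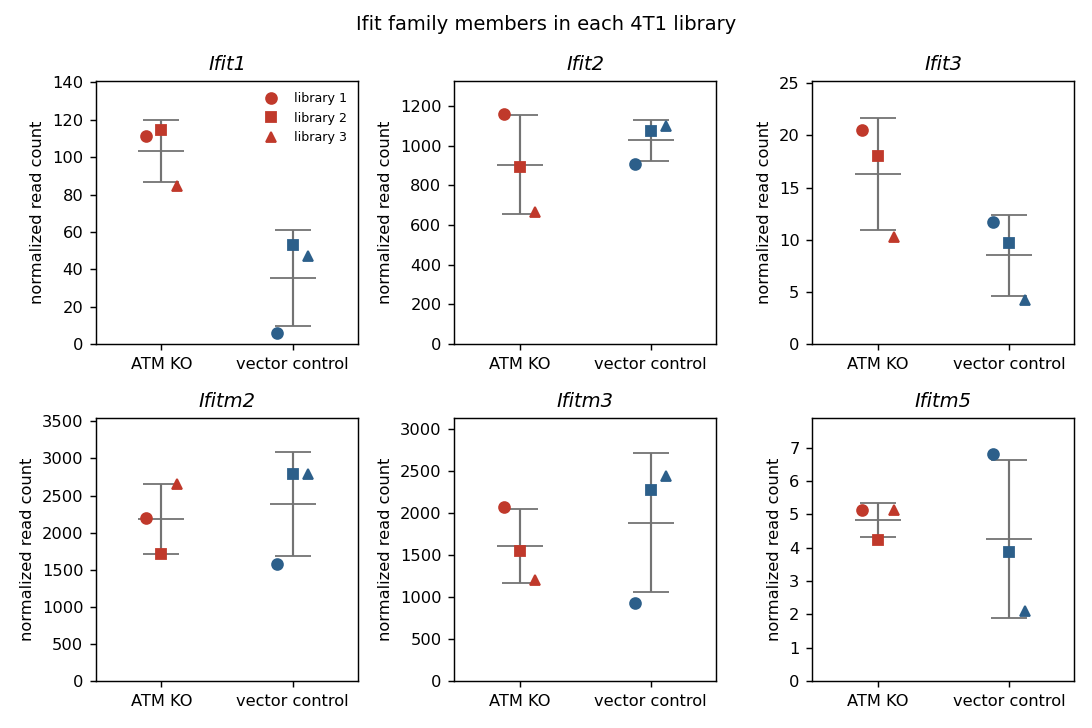
Normalized read count (y axis, linear, from 0) of each member in the 3 ATM KO libraries (red, left) and the 3 vector control libraries (blue, right). Grey bars give the mean and SD. Symbols mark the library number, which is not known to pair libraries between the groups. Ifit1 is the member whose groups do not overlap (84.5 to 115 in ATM KO, 5.84 to 53.2 in vector control), and vector control 1 is the lowest library for Ifit1, Ifitm2 and Ifitm3.

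Counted over the family, 0 of the 5 tested members passed limma's threshold, as did 0% of all 12149 tested genes. Of these genes 505 (4.16%) had an unadjusted p under 0.05, and 336 of all genes (2.77%) were higher with such a p; 1 of the 5 members, Ifit1, was among these. With edgeR, on whole reads recovered from the values, the count of calls was 0. An unadjusted edgeR p under 0.05 was found for 522 genes (4.3%), with none of the members among them. The edgeR p of Ifit1 was 0.0769 before adjustment and 0.99995 after it. DESeq2 on the same reads called 84 genes (0.691%), and 0 members (Ifit1 adjusted p = 0.788); 717 genes (5.9%) and 1 member, Ifit1 at 0.0414, had an unadjusted p under 0.05. Every ATM KO library lay above every vector control in 1 of the 5 tested members, against 5.7% of all tested genes, and below in 0 of 5, against 5.48%. Vector control 1 was below all 5 other libraries in 3 of the 5 members, against 31.2% of all tested genes, and under 0.5 times the mean of vector controls 2 and 3 in Ifit1 and Ifitm3, against 16.2%. Log2 fold changes ran from -0.21 to 1.98, with 2 positive and 3 negative.

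**Figure D3:**
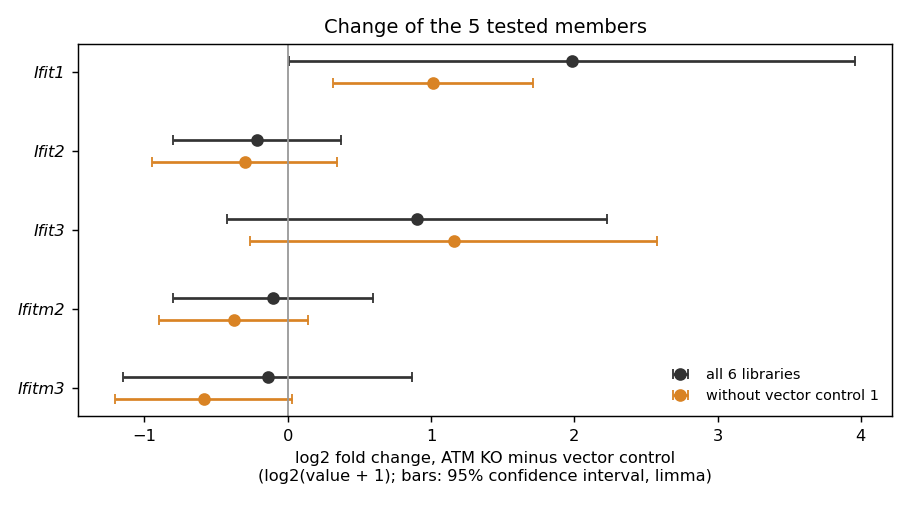
Log2 fold change (x axis, ATM KO minus vector control, log2(value + 1) scale) of the 5 tested members with 95% confidence intervals from limma, for all 6 libraries (black) and without vector control 1 (orange). Ifit1 is at 1.98 with all libraries and 1.02 without that one, and Ifitm3 at -0.14 and -0.59, and no adjusted p passes 0.05 in either fit.

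Ratios between neighbouring genes within a library do not depend on how the library was scaled. The normalized read count of Ifit1 was 9.61%, 12.9% and 12.7% of that of Ifit2 in ATM KO 1 to 3, against 0.644%, 4.96% and 4.30% in vector controls 1 to 3. All ATM KO ratios lay above all control ratios, with or without vector control 1. Ifit3 was 1.77%, 2.03% and 1.54% of Ifit2 in ATM KO 1 to 3, against 1.29%, 0.903% and 0.382% in vector controls 1 to 3. Here too the groups did not overlap. The nearest of these ratios, in ATM KO 3 and vector control 1, rest on 8 and 12 Ifit3 reads. Ifit2 was lowest in ATM KO 3, and the Ifit3 values themselves overlapped between the groups. The share of all gene pairs whose ratios do not overlap was not counted. Ifitm3 was 94.5%, 90.3% and 45.2% of Ifitm2 in ATM KO 1 to 3, against 58.8%, 81.1% and 87.1% in vector controls 1 to 3, and the groups overlapped through ATM KO 3. An exact permutation test (2-sided) over the libraries used the difference of log2(value + 1) between the genes of a ratio. The added 1 leaves this difference some dependence on scaling. The test gave p of 0.10 for the Ifit1 to Ifit2 and the Ifit3 to Ifit2 ratios, the smallest that 3 against 3 libraries can give. It was not among the planned tests. The Ifit1 to Ifit2 ratio uses the same Ifit1 values that separated the groups above, so it is not a separate result. For the Ifitm3 to Ifitm2 ratio p was 1. Adjusted over the 3 ratios by Benjamini-Hochberg, these exact p-values were 0.15, 0.15 and 1.

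**Figure D4:**
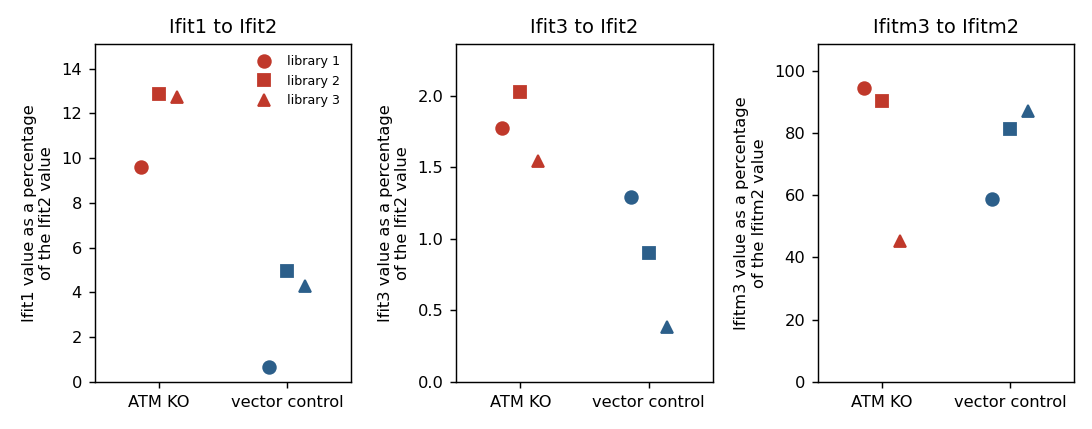
Ratios of normalized read counts within each library, as percentages (y axes, linear, from 0), for ATM KO (red, left) and vector control (blue, right) libraries. The Ifit1 to Ifit2 ratio is 9.61% to 12.9% in ATM KO and 0.644% to 4.96% in vector control, and the Ifitm3 to Ifitm2 ratio overlaps between the groups.

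The members did not follow a single pattern over the libraries. As a description over 6 libraries, Pearson's r of log2(value + 1) was highest between Ifit2 and Ifitm3, of the 10 pairs of tested members, at 0.72. It was 0.65 between Ifitm2 and Ifitm3, 0.55 between Ifit1 and Ifitm3, 0.27 between Ifit1 and Ifit3, 0.01 between Ifit1 and Ifit2 and -0.59, the lowest, between Ifit3 and Ifitm2; all of these share the library scaling and the position of vector control 1. The genes most like Ifit1 were Parp10 (r = 0.996), Zbtb21 (0.994), Gbp3, an interferon-inducible guanylate-binding protein (0.991), Rtp4, an interferon-stimulated gene (0.989), and Rab19 (0.988). Outside the family 62 genes exceeded 0.95 with Ifit1, 26 with Ifit2, 1 with Ifit3 and 84 with Ifitm3. These values too share the position of vector control 1, where Ifit1 deviated by -2.93 (log2) from its own mean. For Ifit2 the closest were Acsl6, Ercc5, Fam83b, Sept8 and Etaa1 (r from 0.979 to 0.988), and for Ifit3 they were Cep170b, Srl, Zbtb48, Smarcd3 and Suds3 (0.927 to 0.951). Ifitm2 was most like Birc2, Bhlhe41, Papss1, Ctnna1 and Pbx2, all at r of 0.998 or more, and 832 genes exceeded 0.95 with it. Ifitm3 was most like Lztr1, A630001G21Rik, Sp140, Arl6ip1 and Ankrd46 (0.990 to 0.996).

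Genes that flank the loci overlapped between the groups. On each side of the Ifit genes, the 3 nearest listed genes were Stambpl1, Fas and Lipa before them and Pank1, Kif20b and Rpp30 after them, with log2 fold changes from -0.30 (Rpp30) to 0.69. The highest was that of Fas, the death receptor, which stood at 769, 485 and 841 normalized read counts in ATM KO 1 to 3, against 234, 572 and 558 in vector controls 1 to 3. ATM KO 2 lay below vector controls 2 and 3, and vector control 1 was lowest here as well. Around the Ifitm genes, Sirt3, Psmd13 and Athl1 before them and B4galnt4, Pkp3 and Sigirr after them had log2 fold changes from -0.19 (Pkp3) to 0.07 (Sirt3). None of the 12 flanking genes passed limma.

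No upstream signalling gene passed a test. Of the 11 interferon receptor and ISGF3 genes, all tested, 11 had a log2 fold change above 0 (median 0.18). Over all tested genes this held for 5903 of 12149 (median -0.01). The largest value was 1.30, for Usp18, a negative regulator of the receptor, whose groups overlapped and which was at -0.03 without vector control 1. In 2 of the 11, Irf1 and the receptor chain Ifnar2, every ATM KO library lay above every vector control, against 5.7% of all tested genes. By limma, edgeR or DESeq2 0 of 11 passed, and 1 had an unadjusted limma p under 0.05, against 4.16% of all tested genes. Usp18, Ifnar2 and the values of the markers Krt14, Csf1r and Cd68 are given here after they were seen. The transcription factor genes Stat2 and Irf9 differed by less than their spread: Stat2 averaged 787 ± 118 in ATM KO and 759 ± 348 in vector control cells, and Irf9 436 ± 175 and 341 ± 131, in normalized read counts of ATM KO and vector control cells (SD, n = 3). Irf7, which amplifies the interferon response, averaged 73.3 ± 24.0 in ATM KO and 50.6 ± 37.1 in vector control cells. Of the abundant members, the kinase Jak1 averaged 5441 ± 922 in ATM KO and 5116 ± 237 in vector control cells, the receptor chain Ifnar1 2866 ± 595 and 2690 ± 1082, and the transcription factor Irf1 2259 ± 535 and 1280 ± 663. In vector control 1 the genes of this list deviated from their own means by a median of -0.93 on the log2 scale, and without that library 5 of 11 were positive with a median of -0.01.

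Among other interferon-stimulated genes, 3 were called by DESeq2 and 0 by limma or edgeR. Of 41 listed genes 38 were tested, 33 had positive log2 fold changes, and the median was 0.56. In 14 of them every ATM KO library lay above every vector control and in 0 below, against 5.7% and 5.48% of all tested genes. At an unadjusted limma p under 0.05, 10 were higher in ATM KO cells, against 2.77% of all tested genes. DESeq2 called 3 as higher in ATM KO cells, against 0.56% of all tested genes. These were Isg15, a ubiquitin-like effector (274 ± 113 in ATM KO and 74.3 ± 11.2 in vector control cells, adjusted p = 0.00481, DESeq2), Oasl2, an oligoadenylate synthetase-like protein (319 ± 64.0 and 55.3 ± 36.1 in ATM KO and vector control cells, adjusted p = 0.0137, DESeq2), and Ifih1, an RNA sensor (616 ± 74.4 and 338 ± 45.2 in ATM KO and vector control cells, adjusted p = 0.0160, DESeq2). Rsad2, which encodes the antiviral protein viperin and is a classic companion of the Ifit genes, overlapped, at 28.7 ± 21.5 in ATM KO and 19.2 ± 12.8 in vector control cells. In vector control 1 the list stood at a median deviation of -1.20, beside -2.93 for Ifit1, -0.82 for Ifitm3, -0.50 for Ifitm2, -0.07 for Ifit2 and 0.06 for Ifit3. Without that library 26 of 38 were positive and the median was 0.22. This list and the receptor list were chosen with earlier results of these data known, so their counts beside all genes are a description.

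**Figure D5:**
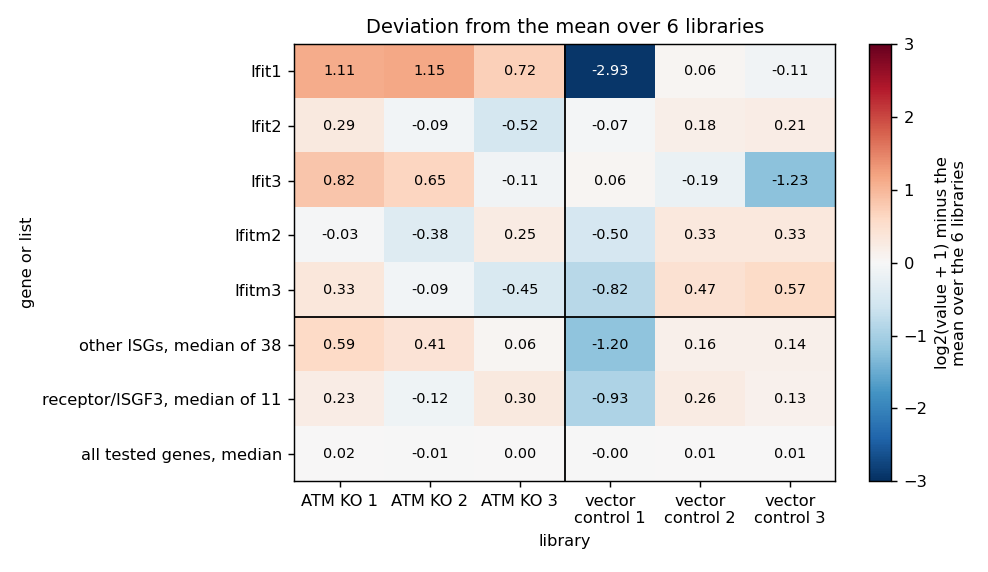
Deviation of log2(value + 1) from each gene's mean over the 6 libraries (colour and printed value) for the 5 tested members and, under the black line, the median deviation of 38 other interferon-stimulated genes (ISGs), 11 receptor and ISGF3 genes and all tested genes, in ATM KO libraries (left) and vector control libraries (right). Ifit1 is high in all ATM KO libraries and at -2.93 in vector control 1, where the other ISGs are at -1.20, while Ifit2 and Ifit3 are near 0 in that library.

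Genes that make, remove or read mRNA caps, which the IFIT1 protein discriminates, and initiation factor genes did not separate the groups. Of 13 tested genes 7 were above 0 and 6 below on the log2 fold change scale (median 0.01), and none passed limma, edgeR or DESeq2 (0 of 13). An unadjusted limma p under 0.05 was found for 0 of them, against 4.16% of all tested genes. Cmtr1, the cap 2'-O-methyltransferase that gives host mRNA the mark IFIT1 avoids (listed as Ftsjd2), averaged 339 ± 100.1 in ATM KO and 267 ± 12.5 in vector control cells (log2 0.30, SE 0.28). The initiation factor genes Eif4g1, Eif3c and Eif3e, the most abundant of the list, had log2 fold changes of -0.09 (SE 0.42), -0.18 (SE 0.19) and -0.21 (SE 0.14). Without vector control 1 the cap list had 10 above 0 and 3 below (median 0.19). Of the 10 partners and regulators of IFITM proteins, 6 were positive and 4 negative (median 0.09), or 4 and 6 without vector control 1 (median -0.04), with none passing (0 by limma, edgeR or DESeq2; 0 at an unadjusted limma p under 0.05). Nedd4, a ubiquitin ligase of IFITM3, averaged 45755 ± 7143 in ATM KO and 45840 ± 14736 in vector control cells, the tetraspanin Cd9 14665 ± 4957 and 12821 ± 2541, and Setd7, a lysine methyltransferase, 6491 ± 986 and 6633 ± 1426, in normalized read counts of ATM KO and vector control cells (SD, n = 3).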

How the data were processed

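Per the submitters' processing notes, STAR, HTSeq, SAMtools, DESeq2, cutadapt and Trim Galore are named beside GRCm38 and mm9, with no version or role. Per gene, the authors deposited a normalized signal: scaled counts, since all values (100%) are whole multiples, within 0.01 reads, of a step that differs by library. How the 13405 listed genes were selected is not stated.

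Each sample was grouped by its title. Values were tested as log2(value + 1) with limma 3.58.1 in R 4.3.3 (empirical Bayes with trend, 2-sided, Benjamini-Hochberg) over the 12149 genes with a mean of at least 10. edgeR 4.0.16 and DESeq2 1.42.0 on the recovered reads, other pseudocounts, filters and TMM scaling, a replicate block and leaving out each library were alternatives. Scripts were tested on simulated data. Exon lengths and coordinates come from GENCODE M21, in which 13249 of the gene IDs are found, and promoters from RefSeq GRCm38.p6; the files hold no coordinates. Whether counting used strand is not stated.

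The rule for named genes took every member, Atm, fixed companions (Stat2, Irf9, Irf7, Isg15, Rsad2, Cmtr1; 1 more is not reported here), list members called by limma or DESeq2 (otherwise the 3 with the highest mean), the 5 most correlated genes per member and the 3 nearest genes on each side of a locus. The members and lists were chosen with earlier results of these data known.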

Additional observations from a re-analysis of the deposited data

How the results depend on the processing

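No member passed the threshold under any alternative (0 in each), among them pseudocounts of 0.5 and 5, no filter, a minimum mean of 50 (which drops Ifit3), TMM scaling, edgeR, DESeq2 and leaving out each library. The count over all tested genes was 0 except by DESeq2, with 84 of 12149 (0.691%), and by DESeq2 without vector control 1, with 544 of 12149. That last setting was added after seeing the data. For the listed pathway genes these counts were 3 and 7 of 72, against 0 by limma. The number of calls thus rose over all genes too, not only in these lists. Leaving out 1 library moved the log2 fold change of Ifit1 between 1.02 (without vector control 1) and 2.51, of Ifit2 between -0.41 and -0.01 and of Ifit3 between 0.52 and 1.19. Those of Ifitm2 (-0.38 to 0.06) and Ifitm3 (-0.59 to 0.11) changed sign. Ifitm2 was positive without ATM KO 2 (0.062), vector control 2 (0.04) or vector control 3 (0.03), and Ifitm3 without ATM KO 3 (0.05), vector control 2 (0.06) or vector control 3 (0.11); the cause was not tested. With the replicate block 0 members and 0 genes passed, and Ifit1 had a log2 fold change of 1.98. Deviations of same-numbered libraries correlated at -0.02, -0.58 and 0.53. So few values cannot decide whether the numbers mark a shared culture or day, which the labels do not say. Ifit3 rests on 49 reads in ATM KO and 26 in vector control libraries and Ifitm5 on fewer, so counting error is largest for these members; whether depth bears on the missing calls was not tested. Reads are not independent molecules.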
